A study of Mus musculus with 6 samples.

Results

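The nuclear-encoded oxidative phosphorylation genes described here are the protein subunits of the respiratory chain and ATP synthase that are transcribed in the nucleus. They were chosen by symbol: every gene whose symbol begins with Nduf other than the Ndufaf assembly factors, Sdha to Sdhd, and symbols beginning with Uqcr, Cox4 to Cox8 or Atp5, with at least 100 unique molecular identifiers (UMIs) in the matrix. Of 32285 genes, 86 had such a symbol and 82 passed the count. By prefix, 39 belong to complex I, 4 to complex II, 8 to complex III, 14 to complex IV and 17 to complex V. Just inside the count stood Cox6b2 with 113 UMIs, and just outside it Cox6a2 with 35. The other candidates left out were Cox7b2, Cox8b and Cox8c, with 1, 1 and 2 UMIs. The 82 members held 1.87% of all gene UMIs, and the 13 protein genes of mitochondrial DNA (mt- genes) held 2.81%.

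Complexes I and II pass electrons from NADH and succinate to ubiquinone, complex III passes them on to cytochrome c, and complex IV hands them to oxygen. Complexes I, III and IV pump protons as they do so, and complex V, the ATP synthase, uses the proton gradient to make ATP. Complex II is built wholly from nuclear genes, whereas each of the other complexes joins nuclear subunits to a core encoded in mitochondrial DNA. Bone-resorbing osteoclasts are a textbook case of a cell rich in mitochondria, and hypoxic tumor cells are known for a shift towards glycolysis.

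The series profiled tumors of MOC-2, a mouse head and neck squamous carcinoma line, grown under the skin of male mice whose strain and age are not given in the sources used here. The treated group has 3 tumors, labelled only as given an experimental agent, and the vehicle group has 3 tumors, given DMSO per the labels. The protocol names these reagents without saying which the treated tumors got: Copper(II) diethyldithiocarbamate, 2-C1-IB-MECA, a phosphorothioate cyclic dinucleotide, 5’ppp-dsRNA/Lyovec, R848, galunisertib, epcadostat, Nw-Hydroxy-nor-L-arginine, L-NMMA, clodronate and 4-1BB ligand. All tumors were injected directly, taken 24 hours later, sorted for live cells, tagged and pooled for droplet sequencing. No label ties a cell to a tumor, so no treated and vehicle tumors are compared, and the matrix is described as 1 pooled sample. The cells carry 6 barcode suffixes, and the cells of a suffix are called a barcode set. These sets have no group, so their values are given only as single values, ranges or medians, with no test.

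Of 14818 cells, 13768 had at least 500 genes and under 15% mitochondrial counts. Cells were placed in lineages by marker genes that include no member, and 10201 fell into 11 lineages, called like a cell type from their markers. Carcinoma-like cells (7161) were those with at least 2 Xist UMIs, no Y-linked UMI and no Ptprc. They also had fewer than 2 markers of any leukocyte lineage other than osteoclast and NK cell. The 3040 host cells had no Xist UMI. Fibroblast, pericyte and endothelial gates also asked for a Y-linked UMI and no Ptprc. A further 16 B cell-like cells are not described, and 2387 met no gate. Set apart were 1164 cells that passed more than 1 gate or had at least 2 Xist UMIs beside a Y-linked UMI, Ptprc or leukocyte markers. Cells exactly at a gate's minimum numbered 202 of 7161 carcinoma-like, 258 of 1853 macrophage or monocyte-like, 82 of 355 T cell-like, 64 of 191 NK cell-like, 24 of 87 neutrophil-like, 34 of 62 dendritic cell-like and 8 of 158 fibroblast-like cells. No barcode sequence occurred in more than 1 set. Median depth differed between lineages, with 11174 UMIs in carcinoma-like cells, 8817 in osteoclast-like cells, 7098 in fibroblast-like cells and 2076 in macrophage or monocyte-like cells. Levels are therefore given as UMI counts scaled to a common total of gene UMIs (CPM, the usual unit) over all cells of a lineage together, with exact 95% intervals that cover counting error only. Each UMI tags 1 end of 1 transcript, so a level is not divided by gene length. With 1 pooled sample there is no test, and a gene is called higher or lower when its CPM differs at least 1.5-fold.

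Osteoclast-like cells had the highest summed level of the members of any lineage, 43343 CPM (interval 43051 to 43636, 209 cells). The next lineage was T cell-like at 18842 CPM, and the lowest was fibroblast-like at 12792 CPM (interval 12592 to 12993, 158 cells). The order of neutrophil-like and fibroblast-like cells at the low end was not settled, since neutrophil-like cells were the higher in only 1 of 2 shared barcode sets. With clusters in place of gates they stood at 14126 CPM, against 14974 CPM in fibroblast-like cells. These 2 clusters held 807 and 371 CPM of Xist, whereas the host gates admit no Xist UMI, so the clusters are less pure. In between stood carcinoma-like cells at 18403 CPM, NK cell-like at 17830, mast cell or basophil-like at 17271, macrophage or monocyte-like at 16902, dendritic cell-like at 16254, pericyte or smooth muscle-like at 15455, endothelial-like at 14857 and neutrophil-like at 14006. Thus the 10 other lineages lay between 12792 and 18842 CPM, and osteoclast-like cells stood apart from them. Counting intervals overlapped between NK and mast cell-like, between mast cell-like and macrophage-like, and among dendritic, pericyte, endothelial and neutrophil-like neighbours in this order. T cell-like, carcinoma-like and NK cell-like levels had separate intervals, but their order held in only 2 of 5 barcode sets for the first pair and in 2 of 4 for the second.

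**Figure D1:**
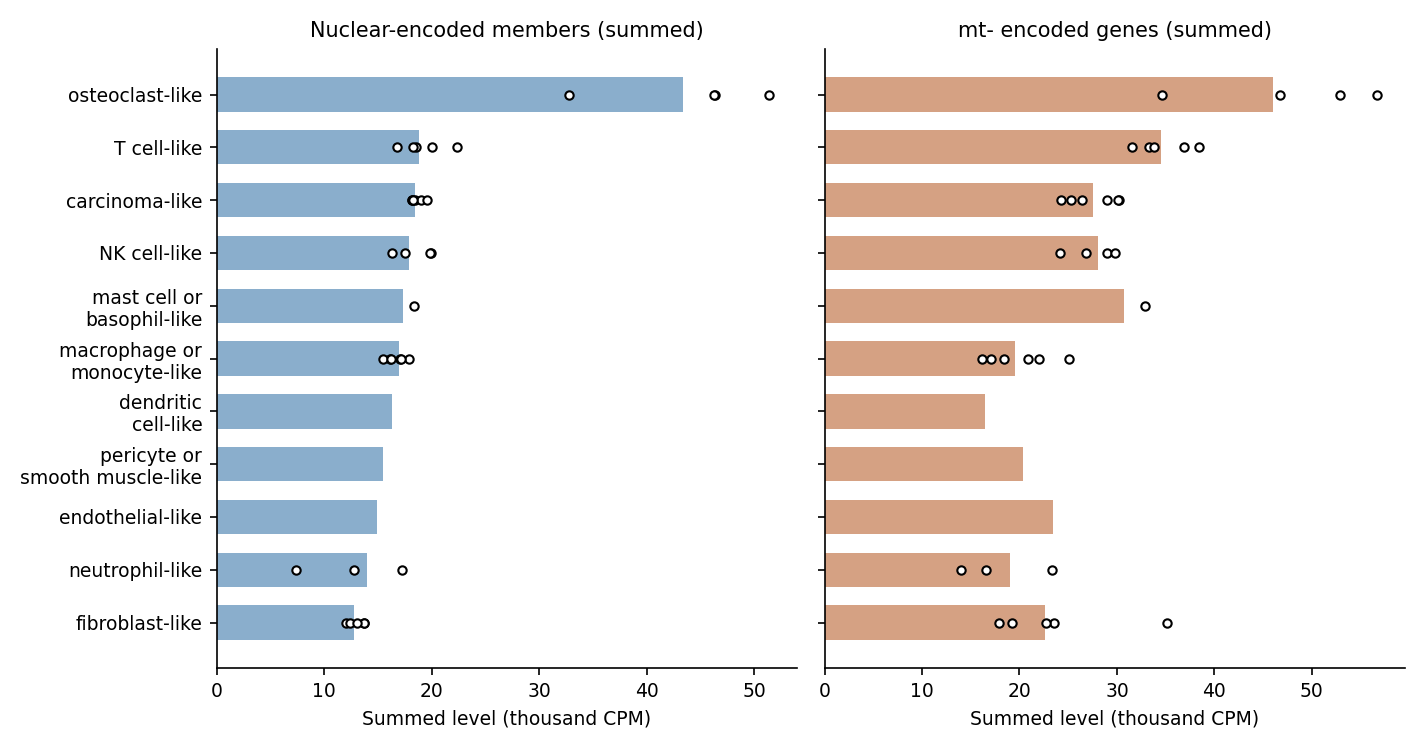
Summed level of the 82 nuclear-encoded members (left) and of the 13 mt- genes (right) by lineage, in units of 1000 CPM. Bars are all cells of a lineage pooled and open points are barcode sets with at least 20 cells. Osteoclast-like cells lead both panels, at 43343 and 46044 CPM, while the order of the other lineages differs between the panels.

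Per cell, osteoclast-like cells carried 404 member UMIs, against 49.7 in macrophage or monocyte-like cells and 234 in carcinoma-like cells. Osteoclasts arise from the monocyte lineage by fusion. CPM sets the difference in RNA content per cell aside. In the 4 barcode sets with at least 20 osteoclast-like cells, the summed member level was 46363, 51409, 46230 and 32806 CPM (sets 1, 2, 4 and 5). All 4 values lay above every set of every other lineage, the highest of which was 22297 CPM in T cell-like cells. Sets 3 and 6 held only 4 and 7 such cells, at 21563 and 30187 CPM. The ratio of osteoclast-like cells to all other gated cells was 2.38 pooled and 1.82 to 2.75 over the sets. Against macrophage or monocyte-like cells alone it was 2.56 pooled and 1.92 to 3.02 over the sets. Most UMIs of all other gated cells come from carcinoma-like cells, which held 91192374 gene UMIs, against 11315961 in the host lineages together. Pooled folds of a host lineage over all other gated cells therefore mainly set it against carcinoma-like cells.

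The osteoclast gate asks for at least 3 of 8 markers, and 39 of its 209 cells sat exactly at that minimum. Those 39 cells had a summed member level of 19899 CPM, and their osteoclast markers summed to only 802 CPM beside 4471 CPM of fibroblast markers. The 30 cells with 4 or 5 markers had 32066 CPM, the 135 cells with 6 or 7 had 51241 CPM and the 5 cells with all 8 had 47222 CPM. The member level was thus lowest where osteoclast markers were weakest. Median depth was 6882 UMIs at 3 markers, 6220 at 4 or 5 and 9446 at 6 or 7. Barcode set 5, the lowest of the 4 sets, also had the lowest osteoclast marker level, 14168 CPM beside 25100 to 26471 in the other 3. The part of gate purity in the set difference was not tested.

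Member by member, 73 of the 81 with a usable fold were at least 1.5-fold higher in osteoclast-like cells than in all other gated cells and 0 were lower. Over the whole transcriptome, 18.7% of 12259 genes were that much higher and 34.9% that much lower. The median log2 fold of the members was 1.33, against -0.24 for all genes tested. Osteoclast-like cells had the highest level of any lineage for 76 of the 82 members. The exceptions were Atp5f1 and Cox7a1 (mast cell or basophil-like), Cox4i2, Cox6b2 and Ndufa4l2 (pericyte or smooth muscle-like) and Ndufs8 (carcinoma-like). Against macrophage or monocyte-like cells, 77 of 82 members were higher and 1 (Cox4i2, with 0 UMIs in osteoclast-like cells) was lower, beside 24.3% and 24.4% of all genes.

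**Figure D2:**
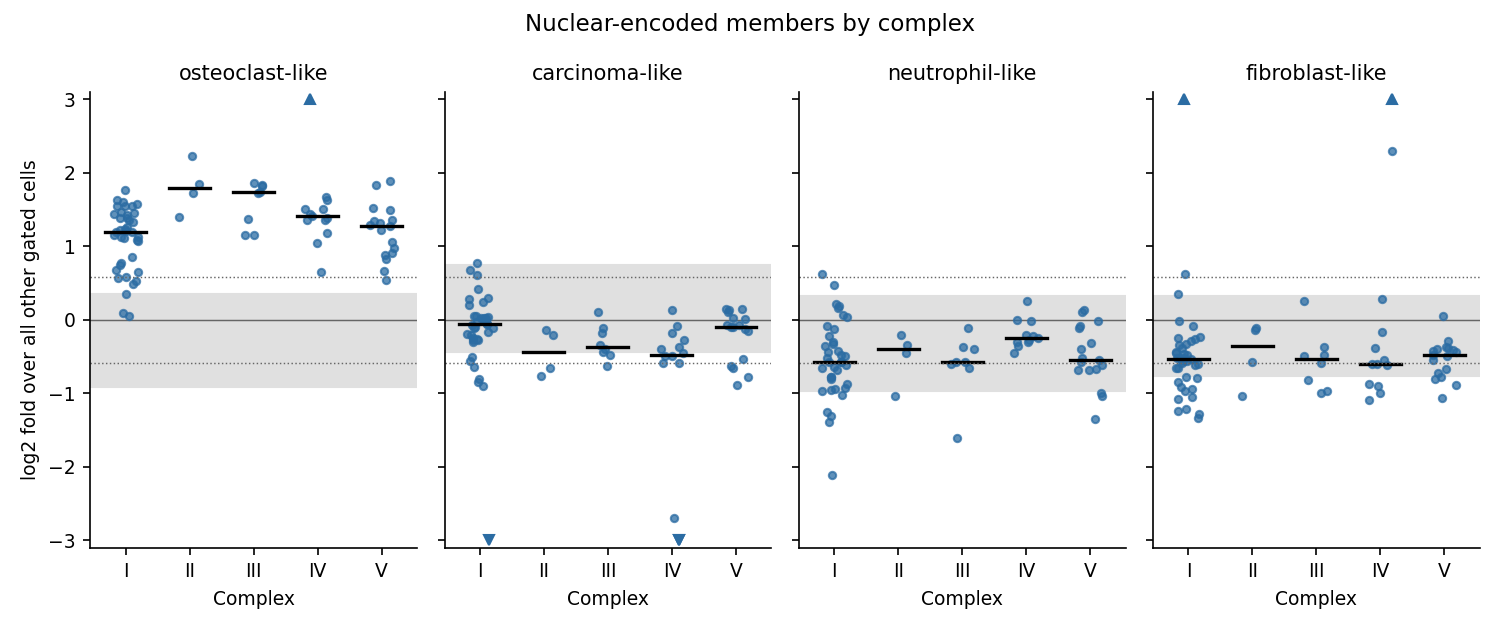
Log2 fold of each member over all other gated cells, by complex, in 4 lineages. Points are members, triangles at the edge are members beyond the axis, bars are medians, dotted lines mark 1.5-fold and the grey band runs between the quartiles of all genes tested. In osteoclast-like cells the median lies above 1 in each complex, whereas in the other 3 lineages the medians lie near or below 0.

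Complex II, which oxidises succinate and is shared with the citric acid cycle, had the largest ratio in osteoclast-like cells. Its summed level was 1022 CPM, 3.44 times that of all other gated cells, and all 4 subunits passed 1.5-fold. Sdha, the flavoprotein that binds succinate, had 272, 391, 329 and 227 CPM in the 4 sets of osteoclast-like cells, against 56.8 to 70.5 CPM over the 6 sets of carcinoma-like cells and 51.0 to 79.8 CPM over those of macrophage or monocyte-like cells. The groups did not overlap, and pooled Sdha was 4.68-fold higher (interval 4.29 to 5.10). Sdhd, a membrane anchor of the complex, had 249, 368, 245 and 133 CPM in the same 4 sets, against 58.5 to 78.1 CPM in carcinoma-like cells. The iron-sulfur subunit Sdhb reached 241 CPM pooled, against 55.2 CPM in macrophage or monocyte-like cells, a log2 fold of 2.13.

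Complex III stood at 2.98 times the level of all other gated cells in osteoclast-like cells, and all 8 members passed 1.5-fold. Uqcr11, a small accessory subunit, had 638, 864, 758 and 451 CPM in the 4 osteoclast-like sets, against 168 to 216 CPM in carcinoma-like cells. Uqcrfs1, the Rieske iron-sulfur protein, had a log2 fold of 1.83, and the core protein Uqcrc2 one of 1.82. Uqcr10, another small subunit, stood at 876 CPM, against 202 CPM in macrophage or monocyte-like cells.

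In complex IV, where the summed ratio was 2.42, 13 of 13 members with a usable fold passed. Cox4i1, the largest nuclear subunit, was the most abundant member of all with 142370 UMIs in the matrix. It had 2407, 2652, 2406 and 1750 CPM in osteoclast-like sets, against 976 to 1078 CPM in carcinoma-like cells and 819 to 950 CPM in macrophage or monocyte-like cells. Cox5a, a subunit on the matrix side of the complex, had 2184, 2183, 1816 and 1187 CPM in osteoclast-like sets, against 551 to 633 CPM in carcinoma-like cells. Both sets of ranges were separate.

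Complex I had the smallest share of called members, 32 of 39, with a summed ratio of 2.21. The members with the smallest osteoclast folds were all from it: Ndufs8, an iron-sulfur subunit, at a log2 fold of 0.06, Ndufa13 at 0.10 and Ndufa7 at 0.35. For Ndufs8 the osteoclast-like level was 106 CPM, against 106 CPM in carcinoma-like cells, and the sets of osteoclast-like cells ran from 78.1 to 121 CPM. By contrast Ndufa4 had 1937, 2321, 2009 and 1219 CPM in osteoclast-like sets, against 424 to 841 CPM in carcinoma-like cells. Ndufa4 is counted here with complex I by its symbol, although it is now regarded as a subunit of complex IV.

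Of the complex V members, 16 of 17 passed, with a summed ratio of 2.29. Atp5k (subunit e, involved in dimers of the enzyme) had 434, 469, 420 and 290 CPM in osteoclast-like sets, against 94.8 to 120 CPM in carcinoma-like cells. The membrane ring of the enzyme is made of subunit c, which 3 genes encode as the same mature protein. Of these, Atp5g3 stood at 1399 CPM in osteoclast-like and 391 CPM in carcinoma-like cells, and Atp5g1 at 986 and 411 CPM. Atp5g2, at 826 CPM in osteoclast-like and 579 CPM in carcinoma-like cells, had a log2 fold of only 0.54 over all other gated cells. The summed gain of subunit c thus came mainly from Atp5g1 and Atp5g3.

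The mt- genes were also higher in osteoclast-like cells, by a smaller ratio than the members when set against all other gated cells. Their sum was 46044 CPM, against 27006 CPM in all other gated cells, a ratio of 1.70 that ran from 1.45 to 1.97 over the 4 sets. Among the 13 genes the log2 fold ranged from 0.26 for mt-Nd6 to 1.76 for mt-Nd3, with 0.70 to 0.90 for the 3 genes of complex IV. Against the same cells the nuclear ratio exceeded the mt- ratio in each complex with mt- genes: 2.21 and 2.07 in complex I, 2.98 and 1.76 in complex III, 2.42 and 1.74 in complex IV, 2.29 and 1.38 in complex V. Against macrophage or monocyte-like cells the order was not settled. There the mt- ratio was 2.35 pooled (2.02 to 2.87 over the sets), beside 2.56 for the members. It was above the member ratio in sets 4 and 5 (2.87 and 2.58 in set 4, 2.02 and 1.92 in set 5), and in complex I the nuclear ratio was 2.56 and the mt- ratio 3.03. Nuclear UMIs per mt- UMI stood at 0.941 in osteoclast-like cells, against 0.669 in carcinoma-like cells. The highest such value was 0.989, in dendritic cell-like cells, and it came with the lowest mt- sum of all lineages, 16432 CPM. The filter at 15% mitochondrial counts removes cells with the most mt- RNA, so these sums describe the cells below it.

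Promoter windows were available from RefSeq (build GRCm38.p6) for 66 of the 82 members, each running from 250 bases before to 50 bases after the annotated start. The windows were searched on both strands for letters bound by known regulators of respiratory genes. GCNTGCG, the middle of the NRF1 motif, was in 48.5% of the 66 member genes, against 18.2% of all 27025 genes with a window. CCGGAAG, read by GABP and other ETS factors, was in 25.8% of member genes, against 9.93% of all. AAGGTCA, read by ERR and other nuclear receptors, was in 12.1%, against 5.38%, and AAGATGG, from a YY1 motif, in 15.2%, against 7.28%. NACGTG, which holds the core of the hypoxia response element, was in 22.7% of member genes, against 21.7% of all. A match is a description of letters and not a bound site. The shares take in members of any fold, and the genes set beside them were not matched for expression or base content. A link between the letters and the osteoclast-like levels was not tested. The windows of the 5 members with the largest osteoclast folds are shown, in the direction of transcription, with the first 4 motifs in capitals: Cox7a1 at chr7:30183921-30184220 (plus strand), Sdha at chr13:74350191-74350490, Atp5k at chr5:108434350-108434649, Uqcr11 at chr10:80406772-80407071 and Sdhd at chr9:50603800-50604099 (all minus strand).
Cox7a1: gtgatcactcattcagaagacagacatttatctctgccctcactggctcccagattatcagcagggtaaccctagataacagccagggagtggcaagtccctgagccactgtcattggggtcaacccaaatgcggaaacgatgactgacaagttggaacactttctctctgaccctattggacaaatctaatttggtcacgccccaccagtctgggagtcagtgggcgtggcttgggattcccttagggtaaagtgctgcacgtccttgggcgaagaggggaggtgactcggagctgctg
Sdha: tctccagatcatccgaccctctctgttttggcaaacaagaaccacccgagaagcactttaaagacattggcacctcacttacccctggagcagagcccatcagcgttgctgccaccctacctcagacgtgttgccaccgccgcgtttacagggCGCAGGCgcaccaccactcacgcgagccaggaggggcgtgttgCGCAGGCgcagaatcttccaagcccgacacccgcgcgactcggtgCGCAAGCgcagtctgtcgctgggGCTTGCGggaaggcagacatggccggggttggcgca
Atp5k: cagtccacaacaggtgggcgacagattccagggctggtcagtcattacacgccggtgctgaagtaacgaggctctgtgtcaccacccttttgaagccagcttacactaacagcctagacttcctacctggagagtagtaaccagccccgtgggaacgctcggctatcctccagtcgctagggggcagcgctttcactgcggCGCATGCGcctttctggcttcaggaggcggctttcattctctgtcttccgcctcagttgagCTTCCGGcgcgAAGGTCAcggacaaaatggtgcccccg
Uqcr11: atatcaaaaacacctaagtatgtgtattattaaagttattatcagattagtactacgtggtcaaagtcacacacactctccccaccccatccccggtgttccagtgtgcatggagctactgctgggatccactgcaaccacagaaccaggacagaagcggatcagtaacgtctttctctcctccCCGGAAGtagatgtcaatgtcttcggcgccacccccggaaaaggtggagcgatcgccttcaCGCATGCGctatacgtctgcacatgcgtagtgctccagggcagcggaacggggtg
Sdhd: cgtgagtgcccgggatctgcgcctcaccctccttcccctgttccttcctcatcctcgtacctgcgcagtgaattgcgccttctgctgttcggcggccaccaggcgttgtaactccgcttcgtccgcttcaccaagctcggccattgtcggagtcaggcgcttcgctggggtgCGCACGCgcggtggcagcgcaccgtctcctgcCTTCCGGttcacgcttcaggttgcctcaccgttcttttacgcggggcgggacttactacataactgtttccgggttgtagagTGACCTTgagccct
Sdha held 4 matches to the NRF1 letters. Atp5k held an overlapping pair of them with 1 ETS and 1 ERR match, Uqcr11 an overlapping pair with 1 ETS match, and Sdhd 1 match to each of the NRF1, ETS and ERR letters. Cox7a1 held 0 of these letters. Cox7a1, the muscle-type form of a complex IV subunit, had the largest log2 fold of all, 3.75, but on only 25 UMIs, seen in 22 of 209 osteoclast-like cells.

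Other genes of mitochondrial energy metabolism were read from lists chosen with earlier results of these data known. Of 17 citric acid cycle genes, 15 were at least 1.5-fold higher in osteoclast-like cells and 0 were lower, with a median log2 fold of 1.13. Idh3a, a subunit of isocitrate dehydrogenase, stood at 196 CPM in osteoclast-like cells, against 60.4 CPM in carcinoma-like cells. Of 15 cytochrome c and electron carrier genes, 8 were higher and 1 was lower. Cyc1, the heme subunit of complex III that the symbol rule does not take in, stood at 316 CPM in osteoclast-like and 79.0 CPM in carcinoma-like cells, and Cycs (cytochrome c) at 1144 and 396 CPM. Coq8a, which acts in ubiquinone synthesis, stood at 104 CPM in osteoclast-like and 0.6 CPM in carcinoma-like cells. Of 16 glycolysis genes, 2 were higher and 4 lower, with a median of -0.34. Of the 16 genes of mitochondrial DNA expression, 4 were higher and 1 was lower. The shares over all genes, to be read beside each of these lists, were 18.7% higher and 34.9% lower.

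Assembly factors moved less evenly in osteoclast-like cells: 8 of 14 complex I factors were higher, 12 of 21 complex IV factors with a usable fold, and 2 of 13 factors for complexes II, III and V. Among 9 regulators of mitochondrial biogenesis with a usable fold, 2 were higher (Ppargc1b and Esrra) and 2 lower (Myc and Hif1a), with a median log2 fold of -0.21. For the regulators these shares are close to, or below, the 18.7% higher and 34.9% lower of all genes. The shares of higher complex I and complex IV assembly factors lay above that 18.7%. Ppargc1b, a coactivator of respiratory genes, had 136 UMIs and 69.8 CPM in osteoclast-like cells, against 39 UMIs and 0.4 CPM in carcinoma-like cells and 2.0 CPM in macrophage or monocyte-like cells. Esrra, the nuclear receptor ERR alpha, stood at 49.3 CPM in osteoclast-like cells and 15.1 CPM in carcinoma-like cells. Ppargc1a, the related coactivator, had 0 UMIs in osteoclast-like cells, and Nrf1 stood at 21.6 CPM, against 22.2 CPM in carcinoma-like cells. Across the 11 lineages, the genes whose log2 level was most like the summed members were Cycs (Pearson r 0.92), the phosphate carrier Slc25a3 (0.90), Mrps14 and Mrpl20 of the mitochondrial ribosome (0.86 each) and Mdh2 (0.86), among 656 genes compared. The 11 lineages differ in depth and osteoclast-like cells stand far from the rest, so r is a description with no test.

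At the low end, fibroblast-like cells had 33 of 81 members at least 1.5-fold lower and 4 higher than all other gated cells. Over all genes, 32.8% were that much lower and 17.9% that much higher, so the share of lower members was near the background. When lineages were taken from clusters in place of the gates, 6 of 82 members were lower, beside 25.3% of all genes. Of the gated cells in the fibroblast cluster, 63.6% were fibroblast-like, and it held 371 CPM of Xist. By the gates, the summed level of fibroblast-like cells was 0.68 of the others pooled and 0.63 to 0.72 in the 5 sets with at least 20 such cells. The lowest folds were those of Ndufa12 (log2 -1.33), Ndufv1 (-1.28) and Ndufs8 (-1.24), all of complex I. For Ndufv1 and Ndufs8 these folds mainly reflect the carcinoma-like reference. Ndufv1 had 12.8 to 52.2 CPM over the fibroblast-like sets and 21.6 to 46.2 CPM over the macrophage or monocyte-like sets. In carcinoma-like sets it had 86.8 to 94.9 CPM. Ndufs8 had 33.1 to 73.1, 36.5 to 75.6 and 96.5 to 115 CPM in the same order. The mt- genes of fibroblast-like cells were at 0.82 of the others pooled, but between 0.65 and 1.18 over the sets. Only the nuclear sum was thus below 1 in each set. Neutrophil-like cells had 28 of 78 members lower and 1 higher, beside 41.0% and 20.2% of all genes. Their 87 cells were few, and their member sums of 17236, 12781 and 7406 CPM in 3 sets overlapped those of other lineages.

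Carcinoma-like cells had 15 members at least 1.5-fold lower and 3 higher than the host cells together, beside 22.0% and 31.8% of all genes. Their summed member level was 0.87 of the host level pooled, 18403 against 21067 CPM, and it was below 1 in 4 of 6 barcode sets (0.77 to 1.20). This reference contains the osteoclast-like cells, and without them the ratio was 1.12, with 7 members lower and 9 higher, beside 22.1% and 33.5% of all genes. The mt- ratio was 1.05 with osteoclast-like cells and 1.24 without them. The members furthest above host cells were core and accessory parts of complex I: Ndufv1, which binds NADH, at 90.7 CPM in carcinoma-like and 53.2 CPM in host cells, Ndufs8 at 106 and 66.5 CPM, and Ndufa13 at 319 and 209 CPM. Over the 6 sets the summed member level of carcinoma-like cells ran only from 18134 to 19552 CPM, against 16232 to 23949 CPM in host cells.

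The immune lineages other than osteoclast-like cells differed more in mt- RNA than in the nuclear members. T cell-like cells stood at 18842 CPM for members and 34493 CPM for mt- genes, with nuclear UMIs per mt- UMI at 0.546. Macrophage or monocyte-like cells stood at 16902 and 19558 CPM, with a ratio of 0.864. In T cell-like cells 5 of 78 members were higher and 11 lower (24.2% and 37.0% of all genes), in NK cell-like cells 3 and 15 of 78 (20.0% and 39.7%), and in macrophage or monocyte-like cells 7 and 10 of 82 (16.8% and 43.1%). A few small subunits led in lymphocytes: Atp5e, subunit epsilon of ATP synthase, at 514 CPM in T cell-like and 545 CPM in NK cell-like cells, against 248 CPM in carcinoma-like cells, and Uqcrh, the hinge protein of complex III, at 699 and 558 CPM, against 336 CPM. Ndufa1 stood at 141 CPM in T cell-like and 61.2 CPM in carcinoma-like cells. Ndufv1, the NADH-binding subunit of complex I, was at the low end, with a log2 fold of -1.22 in T cell-like cells.

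The rarer lineages rest on few cells. In 67 mast cell or basophil-like cells 6 of 78 members were higher and 31 lower (15.1% and 44.1% of all genes), with Atp5f1, a stator subunit of ATP synthase, at 588 CPM on 94 UMIs. In 62 dendritic cell-like cells 5 of 78 were higher and 17 lower (21.6% and 38.1%), led by Ndufa6 at 319 CPM. In 24 endothelial-like cells 0 of 78 were higher and 25 lower (30.6% and 23.0%), and in 34 pericyte or smooth muscle-like cells 5 of 81 were higher and 15 lower (24.3% and 23.0%). In the endothelial-like cells 18 of the 25 lower members were subunits of complex I. Complex I made up 38 of the 78 members with a usable fold there. The 24 cells held 199845 gene UMIs in all, so members of low level rest on few UMIs.

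Of the 4 rare paralogs among the members, Cox4i2, Ndufa4l2 and Cox6b2 had their highest level in pericyte or smooth muscle-like cells, while Cox7a1 had 0 UMIs in these 34 cells. No member took part in their gate. These 34 cells also carried 18577 CPM of fibroblast markers, beside 9673 CPM of pericyte or smooth muscle markers. Cox4i2, the form of subunit 4 known for its role in oxygen sensing, had 47 UMIs in 15 of 34 such cells, 187 CPM. All other gated cells together had 24 UMIs of it, of which 17 were in macrophage or monocyte-like cells, 4 in fibroblast-like cells and 3 in carcinoma-like cells. With 131 UMIs in the whole matrix, Cox4i2 passes the minimum of 100 only with these 47, so its level here is a description. Ndufa4l2, a hypoxia-inducible relative of Ndufa4, had 76 UMIs in 23 of 34 pericyte or smooth muscle-like cells, 303 CPM, and 105 UMIs in 35 of 158 fibroblast-like cells, 85.6 CPM. Of the fibroblast-like sets, set 1 had only 1 UMI of it in 45 cells, 2.6 CPM, and sets 2 to 5 had 84.2, 132, 97.0 and 99.2 CPM. In carcinoma-like cells it had 61 UMIs in 32 of 7161 cells, 0.7 CPM. Its partner Ndufa4 stood at 299 CPM in pericyte or smooth muscle-like cells, so the pair had about equal levels there. Cox6b2, the testis form of a complex IV subunit, had 10 UMIs in 7 of the 34 cells. As background, 13 of 1853 macrophage or monocyte-like cells had a Cox4i2 UMI (0.702%, at a median of 2076 UMIs). Among deeper lineages, 3 of 158 fibroblast-like, 0 of 209 osteoclast-like and 2 of 7161 carcinoma-like cells had one. Their medians were 7098, 8817 and 11174 UMIs. In pericyte or smooth muscle-like cells the share was 15 of 34 (44.1%, at a median of 5965 UMIs). Cells of 1 pooled sample are not replicates, so these shares carry no interval. Fewer than 20 pericyte or smooth muscle-like cells fell in any barcode set, so no spread over sets is given.

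**Figure D3:**
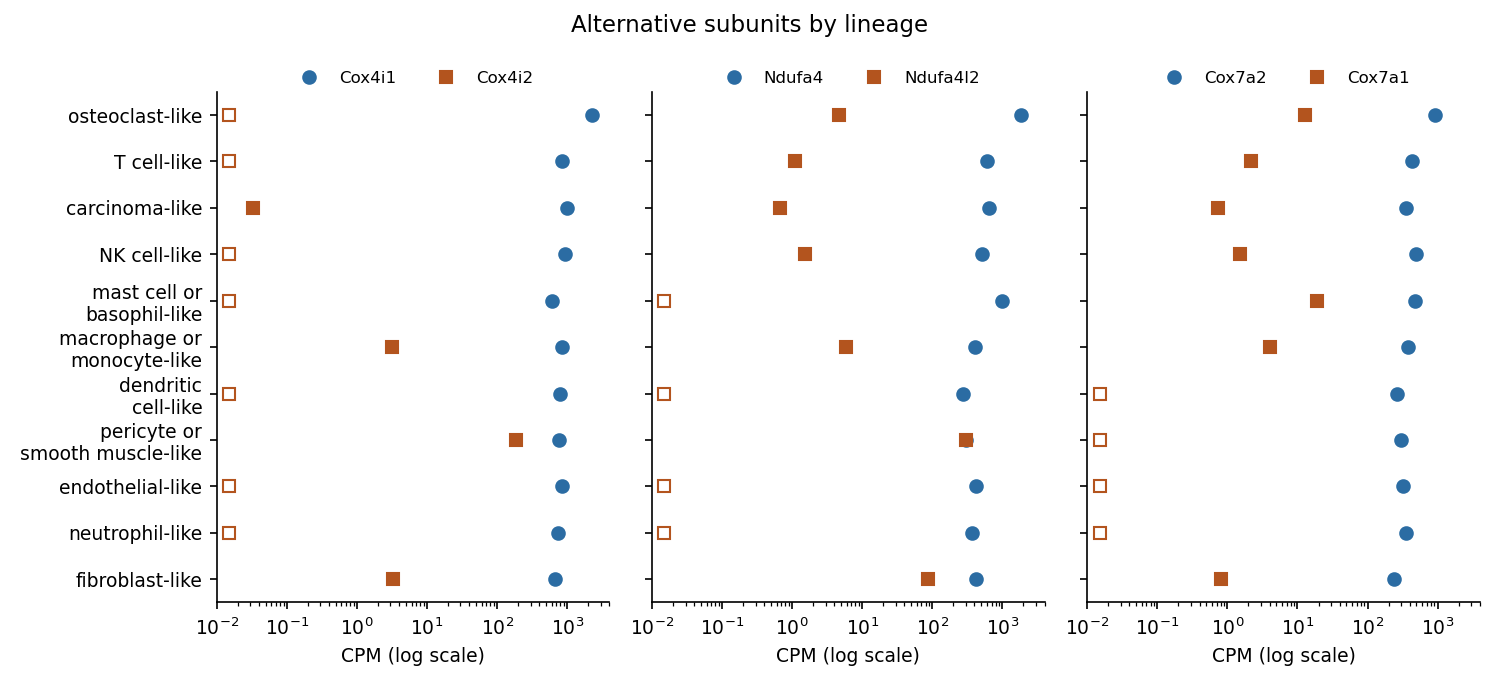
Level of paired alternative subunits by lineage, in CPM on a log scale, with lineages in order of their summed member level. Filled symbols are pooled values and open symbols at the left edge are 0 UMIs. Cox4i2 and Ndufa4l2 reach 187 and 303 CPM in pericyte or smooth muscle-like cells, and Cox4i1 is the more abundant form in every lineage.

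Within the carcinoma-like cells, 6569 had at least 4000 UMIs and were thinned to that number to read 8 states from marker genes. Each state takes the lowest whole number of summed marker UMIs that leaves at most 10% of the cells, so it is a range of a score and not a type, and the states overlap. For the hypoxic state the minimum was 10 marker UMIs, with 100 of its 574 cells exactly at it and 137 cells 1 UMI below. Member genes are not among the markers.

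Hypoxic carcinoma-like cells, which are high in targets of the oxygen-sensing pathway such as Car9, Egln3 and Vegfa, had the lowest member level of the 8 states. It came to 14993 CPM (interval 14898 to 15088), against 18799 CPM in the other carcinoma-like cells, a ratio of 0.80. In the 6 barcode sets the hypoxic level was 14694, 14359, 15100, 15439, 15428 and 14335 CPM, against 18846, 19135, 20589, 18447, 18661 and 18787 CPM in the other cells of the same set. Every hypoxic value lay below every other value, and the ratio ran from 0.73 to 0.84. Per cell, hypoxic cells had 167 member UMIs and the other cells 261. Of 81 members, 74 had a negative log2 fold and the median was -0.35, against -0.05 for all genes. Only 6 members were at least 1.5-fold lower and 3 higher, beside 14.5% and 10.2% of all genes. The count of lower members was 19 of 80 with the state cut at the top 5% of cells, 13 of 79 with cells thinned to 2000 UMIs and 11 of 80 without barcode set 5. The shares of all genes that much lower under these settings were 19.5%, 16.6% and 15.8%.

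The largest decrease was that of Ndufa4. It had 391, 337, 375, 425, 371 and 259 CPM in hypoxic cells of the 6 sets, against 745, 726, 941, 661, 606 and 445 CPM in the other cells of those sets. Each set was lower, and the pooled log2 fold was -0.87. Sdhb stood at 45.4 CPM, against 77.7 CPM (log2 -0.78), and Ndufa5, an accessory subunit of complex I, at 40.8 CPM, against 70.9 CPM (log2 -0.79). Atp5g1, one of the subunit c genes, had 214 to 280 CPM over the sets of hypoxic cells, against 398 to 506 CPM, a pooled log2 fold of -0.74. Ndufv3 had a log2 fold of 0.54, below 1.5-fold, with more CPM in hypoxic cells in 5 of 6 sets, at 80.7 to 122 CPM in hypoxic and 65.7 to 82.3 CPM in other cells. The 3 members past 1.5-fold upward were all rare paralogs: Cox7a1 (14 UMIs), Ndufa4l2 (8 UMIs) and Cox6b2 (29 UMIs in all 7161 carcinoma-like cells). By complex the summed ratio was 0.75 in complex I, 0.77 in II, 0.83 in III, 0.86 in IV and 0.79 in V. Ndufa4 is summed into complex I here by its symbol, which lowers the complex I ratio and leaves its decrease out of complex IV.

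The decrease was graded. In cells with 0, 1, 2, 3 and 4 hypoxia marker UMIs the summed member level was 20109, 19759, 19127, 18669 and 18181 CPM. It was 17509 CPM at 5 to 6 UMIs, 16514 CPM at 7 to 10 and 14773 CPM at 11 to 58. The mt- sum did not follow in step: it lay between 26688 and 27503 CPM up to 6 UMIs, then at 25410 and 22567 CPM. Ndufa4l2, called higher in the hypoxic state, was not highest in the top bin. It had 2.9 CPM (22 UMIs) at 7 to 10 marker UMIs and 1.1 CPM (6 UMIs) at 11 to 58. Median depth fell along the same bins, to 9850 UMIs in the top bin against 13107 UMIs in the lowest, and with each cell thinned to 2000 UMIs the ratio of hypoxic to other cells was 0.81. Malat1, a nuclear RNA, was at 21850 CPM in hypoxic and 14819 CPM in other cells. Cytosolic ribosomal protein genes stood at 153355 CPM in hypoxic and 156688 CPM in other cells. The part of these differences in the member level was not tested.

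Along with the members, glycolysis genes moved the other way in hypoxic cells. Of 16, 15 were at least 1.5-fold higher, with a median log2 fold of 1.11, and Slc2a1 among them is also a marker of the state. Slc16a3, which exports lactate, had a log2 fold of 2.10, and Ldha, which makes lactate, one of 1.03. Of 14 complex I assembly factors, 5 were lower and 0 higher, beside 14.5% and 10.2% of all genes. Ndufaf4 and Ndufaf2 were at a log2 fold of -1.11 each. Of 17 citric acid cycle genes 3 were lower, a share near the 14.5% of all genes. Among the 3 was Fh1 (fumarase) at -0.99. Higd1a, a hypoxia-induced factor that binds complex IV, was at 1.98 and was the only one of 21 complex IV factors past 1.5-fold upward.

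**Figure D4:**
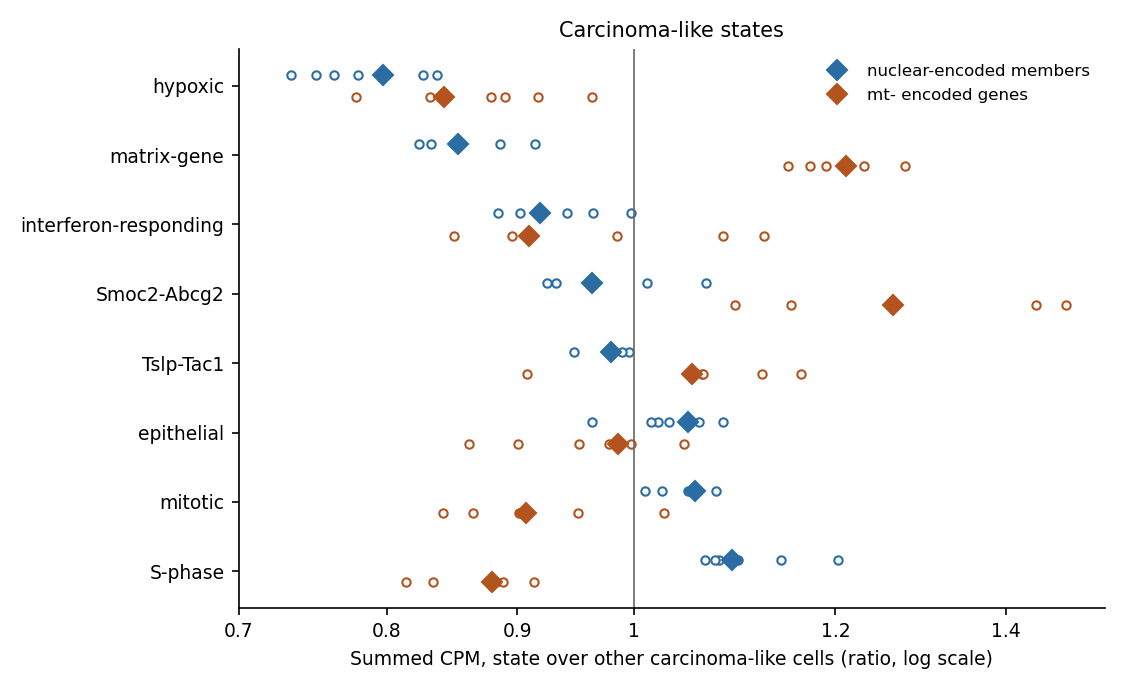
Ratio of the summed level in each carcinoma-like state to the other carcinoma-like cells, on a log scale, for nuclear-encoded members (blue) and mt- genes (brown). Diamonds are pooled values and open points are barcode sets with at least 20 cells of the state. In hypoxic cells both ratios are below 1, at 0.80 and 0.84, while in matrix-gene cells they lie on opposite sides of 1, at 0.85 and 1.21.

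Matrix-gene carcinoma-like cells, which are high in collagens, Postn and Fn1, separated the nuclear from the mt- transcripts. Their members summed to 15964 CPM, against 18715 CPM in the other carcinoma-like cells, a ratio of 0.85 (0.82 to 0.91 in 5 sets). Their mt- genes summed to 32010 CPM, against 26426 CPM, a ratio of 1.21 (1.15 to 1.28 in the same sets). Nuclear UMIs per mt- UMI were 0.499 in these cells and 0.708 in the others. All 5 sets gave both directions. Of 80 members, 70 had a negative log2 fold, with 4 past 1.5-fold lower (Cox5a, Ndufa4, Atp5b and, on 3 UMIs, Cox7a1) and 1 higher (Ndufa4l2, on 19 UMIs), beside 14.8% and 16.9% of all genes. Cox5a had 445, 418, 359, 376 and 384 CPM in matrix-gene cells of sets 1, 2, 4, 5 and 6, against 633, 662, 578, 639 and 570 CPM in the others. Atp5b, the catalytic beta subunit of ATP synthase, had a log2 fold of -0.60, and Ndufa4 one of -0.62, while Uqcrh was at 0.28. Of the mt- genes, 13 of 13 had a log2 fold of 0 or above, from 0.00 for mt-Atp8 to 0.43 for mt-Nd4l.

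Across bins of matrix marker UMIs the member sum was 19679 CPM at 0 to 1 and 16071 CPM at 40 to 286, and the mt- sum was 23488 and 31605 CPM in the same bins, each changing in 1 direction at every step. Matrix-gene cells were shallower, with a median of 8406 UMIs against 12454, and had 23953 CPM of Malat1 against 14691 and 123976 CPM of ribosomal protein genes against 158818. Depth and RNA composition moved with the state, and their part in the result was not tested. Smoc2-Abcg2 cells showed a similar mt- excess, 33602 against 26577 CPM (ratio 1.26, 4 of 4 sets above 1), with members at 0.96. In that state 0 of 78 members passed 1.5-fold in either direction, beside 11.8% of all genes higher and 10.5% lower. It is named for 2 marker genes, and 142 of its 245 cells sat at the minimum of 2 marker UMIs.

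Proliferating cells showed the reverse of the matrix-gene pattern. S-phase cells had 19998 CPM of members, against 18299 CPM (ratio 1.09, 6 of 6 sets above 1), and 23966 CPM of mt- genes, against 27247 CPM (ratio 0.88, 6 of 6 sets below 1). Of 81 members 66 had a positive log2 fold, with a median of 0.13 against -0.08 for all genes, but 0 passed 1.5-fold in either direction, beside 8.81% of all genes higher and 14.3% lower. The largest folds were those of Ndufa5 (log2 0.42), Ndufab1, the mitochondrial acyl carrier protein (0.36), and Atp5g1 (0.34). Ndufa5 had 82.0 to 103 CPM over the 6 sets of S-phase cells, against 58.4 to 71.8 CPM in the others, with no overlap. Ndufv3 and Uqcrh were the other way, at -0.40 and -0.33. Mitotic cells gave ratios of 1.06 for members and 0.91 for mt- genes, with the member ratio above 1 in 5 of 5 sets and the mt- ratio below 1 in 4 of 5. In mitotic cells 0 members were higher and 2 were lower (Cox7a1 and Ndufa4l2), beside 6.15% and 15.6% of all genes. Those 2 calls rest on few UMIs, with 67 and 61 in all 7161 carcinoma-like cells. Both states were deeper than the rest, with medians of 17122 and 18438 UMIs. Malat1 was at 8273 CPM in S-phase cells, against 16416 CPM in the others, and at 9451 CPM in mitotic cells, against 16307 CPM. Ribosomal protein genes stood at 169586 against 154409 CPM for S-phase and 165341 against 154956 CPM for mitotic cells. The part of depth and RNA composition in these ratios was not tested.

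**Figure D5:**
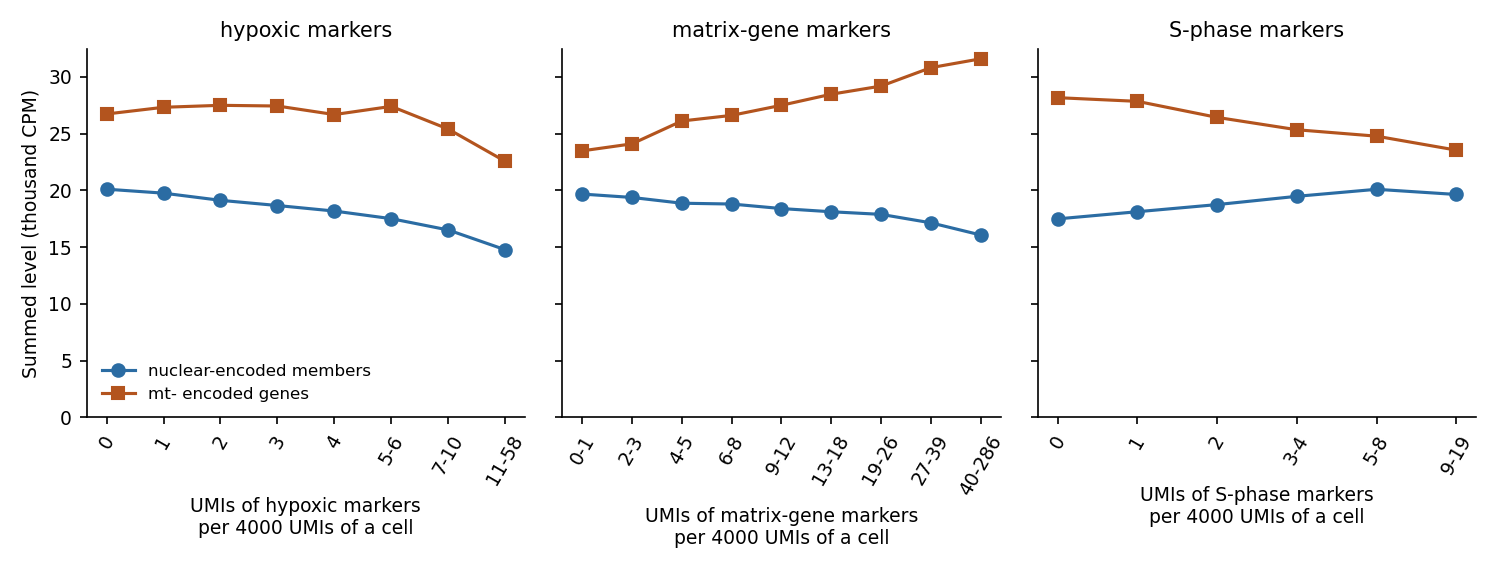
Summed level of nuclear-encoded members and mt- genes (in units of 1000 CPM) in carcinoma-like cells grouped by the number of state marker UMIs among 4000 UMIs of a cell. Points are all cells of a bin pooled. Along hypoxia markers the members fall to 14773 CPM, along matrix markers members and mt- genes part, and along S-phase markers they approach each other.

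In the remaining states the summed member level differed from other cells by under 10%. Interferon-responding cells had a member ratio of 0.92 (0.89 to 1.00 in 5 sets) and an mt- ratio of 0.91 pooled (0.85 to 1.12, above 1 in 2 of 5 sets), with 1 member higher (Cox6b2) and 1 lower (Ndufa4l2), beside 5.88% and 6.25% of all genes. Tslp-Tac1 cells had ratios of 0.98 and 1.05, with the same pair past 1.5-fold in the same directions, beside 5.11% and 11.7%. Epithelial cells had ratios of 1.05 and 0.99, with 2 higher (Ndufa4l2 and Cox7a1) and 0 lower, beside 7.66% and 13.2%. Next to these rare paralogs, Ndufa4 had the largest fold in that state, at 869 CPM, against 627 CPM in other cells. It was higher in 5 of 6 sets, with the widest gap in set 3, where Ndufa4 had 1140 CPM in epithelial-state cells, against 394 CPM in the others. In set 5 it had 560 CPM, against 581 CPM. The calls of Cox6b2, Ndufa4l2 and Cox7a1 in these states rest on few UMIs. All 7161 carcinoma-like cells together had 29 UMIs of Cox6b2, 61 of Ndufa4l2 and 67 of Cox7a1.

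In 4 of the carcinoma-like states the folds of Ndufv3 and Uqcrh had the opposite sign to most members, though all stayed below 1.5-fold. Ndufv3, a small complex I subunit, had a log2 fold of 0.54 in hypoxic, 0.22 in matrix-gene, -0.40 in S-phase and -0.44 in mitotic cells. Uqcrh had 0.10 in hypoxic, 0.28 in matrix-gene, -0.33 in S-phase and -0.26 in mitotic cells. Both were singled out after their values were seen. Apart from the rare paralogs, Ndufa4 spanned the widest range over the 8 carcinoma-like states, from 369 CPM in the hypoxic to 957 CPM in the Smoc2-Abcg2 state. Reads of many of these genes may be shared with near-identical processed pseudogenes, and Ndufb1-ps is listed under a pseudogene symbol, so single values of such members are uncertain.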

How the data were processed

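Single-cell UMI counts per gene are raw counts, as the authors deposited them in 1 pooled matrix whose header names Cell Ranger 7.0.0; the submitters' processing notes name Cell Ranger 7.1 and build mm10. The 6 barcode sets held 7354560 to 38798439 gene UMIs. After removing cells below 500 genes or at 15% mitochondrial counts and above, the rest were gated by marker genes and their counts summed to CPM, with exact 95% intervals for counting error only. Folds use a floor of 3 counts per group, and genes needed at least 100 UMIs. Members, lists, gates and thresholds were chosen with earlier results of these data known, and Klra4 was dropped from the NK markers after its values were seen. Other forms of the NRF1 and YY1 motifs were searched before those given. Named genes are the 3 largest and 3 smallest folds of each comparison, the 2 most abundant members of each complex, paralogs and mt- genes, with others singled out after their values were seen. Doublets were scored with scrublet in scanpy 1.11.5 and not removed (267 cells scored at least 0.25). Fold counting was tested on simulated data. No tumor could be tied to cells, so the planned edgeR tests of treated over vehicle tumors were not run. Python 3.11.15 and scipy 1.17.1 were used.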

Additional observations from a re-analysis of the deposited data

How the results depend on the processing

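No paired analysis was possible because no label or column ties a cell to a tumor, and for the same reason other fits of treated over vehicle tumors were not run. The summed member ratio of osteoclast-like over all other gated cells (2.38) was 2.43 in CPM without mt- genes, 2.49 without mt- and ribosomal protein genes, 2.47 with Leiden clusters, 2.33 at 1000 genes and 10% mitochondrial counts, 2.66 at 1 more marker, 2.44 thinned to 2000 UMIs and 2.55 as the median of barcode sets. The carcinoma-like over host ratio (0.87) was 0.890 without mt- and ribosomal protein genes and also at 200 genes and 25% mitochondrial counts, 0.921 with clusters, 0.842 under the strict filter, 0.854 at 1 more marker, 0.900 thinned, 0.922 as the median and 1.12 when osteoclast-like cells were left out, an alternative chosen after seeing the data. Its mt- ratio (1.05) was 1.06, 1.01, 1.04, 1.03, 1.30, 1.10 and 1.24 in that order, leaving aside the wide filter, and 1.05 at low doublet scores. The hypoxic ratio (0.80) was 0.790 without mt- and ribosomal protein genes, 0.784 under the wide filter, 0.765 at the top 5% of cells, 0.813 thinned and 0.771 as the median.

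Members lower in fibroblast-like cells numbered 33, but 6 with clusters. Members lower in carcinoma-like cells numbered 15, but 7 without osteoclast-like cells. Members lower in hypoxic cells numbered 6, but 19 at the top 5% and 13 thinned. Leaving out each barcode set gave 2.28 to 2.47 for the osteoclast-like ratio, 0.852 to 0.912 and 1.02 to 1.08 for the carcinoma-like member and mt- ratios, 0.785 to 0.805 for the hypoxic ratio, and 72 to 75, 31 to 42, 12 to 18 and 5 to 11 members for the osteoclast-like, fibroblast-like, carcinoma-like and hypoxic counts. Direction turned for 2 members: Ndufa4l2 in osteoclast-like cells, where 8 of 9 UMIs sat in 1 cell (log2 -0.72 at 1 more marker, -1.74 with clusters, -0.55 to 1.25 leaving out sets), in macrophage or monocyte-like cells (-0.80 with clusters) and in epithelial-state cells (-0.19 to 2.02 leaving out sets), and Ndufb1-ps in neutrophil-like cells (-0.069 with clusters). The causes were not tested. Over single members and alternatives, 5291 other values moved by less than their counting interval and 947 by more. Depth limits the lineages of under 100 cells, whose members often rest on few UMIs.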

Other observations

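A cluster of 220 cells lay outside the gates, with 5 of its cells gated and Xist at 20.1 CPM. Its summed member level was 28820 CPM and its mt- level 38888 CPM, below osteoclast-like cells and above every other lineage for the members. Cytosolic ribosomal protein genes made up 290870 CPM of it, against 169286 CPM in osteoclast-like cells. The genes furthest above the other clusters were the ribosomal protein gene Rps26, Nefl and Cenpw. In the 5 barcode sets with at least 20 of its cells the member level ran from 26475 to 31098 CPM. It rests on too few gated cells to be given a name.

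A cluster of 679 cells had Xist at 2241 CPM, mt- genes at 49924 CPM and members at only 14602 CPM, with a median of 4545 UMIs per cell. It is part of the carcinoma-like lineage: 576 of its cells were gated, and 99.1% of those were carcinoma-like.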
